A study of Homo sapiens with 6 samples.

Results

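The core genes of the microRNA pathway are described here in T24 cells, a line from a human urinary bladder carcinoma, after knockdown of TRAIP. They are the Argonaute genes AGO1, AGO2, AGO3 and AGO4, the nuclease genes DROSHA and DICER1, the DROSHA partner DGCR8, the export receptor XPO5 and the scaffold genes TNRC6A and TNRC6B. They were chosen by name and make up 10 of the 33542 genes in the deposited table. Earlier results of these data were known when these genes and the related lists below were chosen. All 10 had enough counts to be tested. The siTRAIP libraries came from cells transfected with a small interfering RNA (siRNA) against TRAIP, an E3 ubiquitin ligase that acts at stalled replication forks. The siNC libraries came from cells transfected with a control siRNA. The columns of all 3 siTRAIP libraries share the name T24_siTR2, and no other siRNA against TRAIP is named. Effects of the loss of TRAIP and other effects of that siRNA cannot be told apart in these libraries. Each group had 3 RNA sequencing libraries, and both groups received an siRNA with Lipofectamine 3000, so neither shows untreated cells. The labels do not say that the 3 libraries of a group were separate cultures, so p-values measure the spread between these libraries, which may be technical.

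A microRNA begins as a hairpin in a longer transcript, which DROSHA and its RNA-binding partner DGCR8 cut out in the nucleus. XPO5 carries the hairpin to the cytoplasm, where DICER1 trims it to a short duplex. An Argonaute protein keeps a single strand of the duplex as a guide and pairs it, mainly through the seed near the 5′ end of the guide, with target messenger RNAs. TNRC6 proteins bind Argonaute and bring in the enzymes that shorten the poly(A) tail and remove the cap. A transfected siRNA enters at the Argonaute step, and AGO2 is the human Argonaute best known for cutting a fully paired target.

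TRAIP, the gene targeted, stood at 12.5, 14.7 and 11.6 CPM in siTRAIP, against 26.6, 28.3 and 28.4 CPM in siNC. CPM is the count of a gene scaled to a fixed library size, here with TMM factors that align the bulk of genes between libraries. The TRAIP log2 fold change of siTRAIP over siNC was -1.11 (standard error 0.07, adjusted p = 6.74e-10, edgeR quasi-likelihood test with Benjamini-Hochberg adjustment over 18685 genes, as for all adjusted p-values below). Total gene counts were 39111793 to 70439496 in siTRAIP and 54818483 to 58066330 in siNC. The deepest library, siTRAIP replicate 3, stood apart from the others of its group: a chi-square comparison of its counts with theirs gave 15.8 and 16.4 per degree of freedom, and 3.20 to 7.32 came from the other pairs of libraries within a group. Keratin genes were abundant (KRT7 averaged 1152 CPM in siTRAIP and 1308 CPM in siNC), as was VIM (705 CPM in siTRAIP and 725 CPM in siNC), but the uroplakin UPK3A, KRT5 and CDH1 stood near 0 in all libraries. The summed level of 12 urothelial and epithelial markers found was 3192 to 3486 CPM in siTRAIP and 3497 to 3559 CPM in siNC. KRT7 was the only gene called (adjusted p under 0.05) among 8 tested, against 12.8% of all genes tested. Markers of leukocytes were near 0 (PTPRC and CD14) except CD68, which averaged 43.3 CPM in siTRAIP and 34.9 CPM in siNC (adjusted p = 9.17e-04). The 3 endothelial markers found summed to at most 0.158 CPM, and of 4 fibroblast markers found COL1A1 reached 4.26 CPM in siTRAIP replicate 3. The part of these markers in the results below was not tested.

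Of the 10 microRNA pathway genes, 3 passed an adjusted p of 0.05, against 12.8% of all genes tested. AGO2 and TNRC6A fell in siTRAIP, where 5.34% of all genes fell, and DROSHA rose, where 7.47% of all genes rose. The change in AGO2 was by far the largest of the 10, and the log2 fold changes of the others lay between -0.22 and 0.19. The median log2 fold change of the 10 genes was -0.12, against -0.0017 over all genes tested. For 7 of the 10 the siTRAIP and siNC libraries did not overlap, against 29.1% of all genes tested. The shares of all genes, here and below, include genes with few counts. With only genes of at least 1 CPM in 3 libraries tested, 2507 of 14480 genes and 4 of the 10 were called. The direction of small changes here depends on scaling: with library totals alone in place of TMM factors the median of all genes was -0.06, and that of the 10 genes -0.18. Transcript levels in bulk RNA do not tell fewer cells expressing a gene from less RNA per cell, and they measure no protein.

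**Figure D1:**
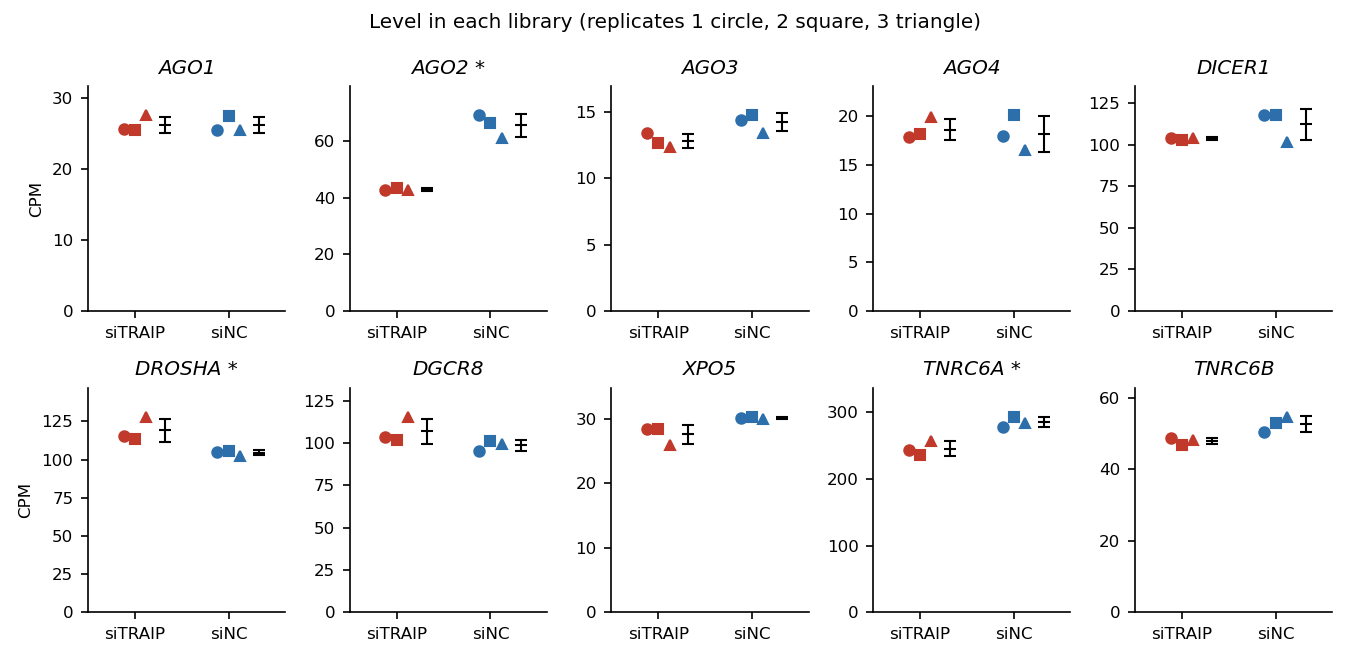
Level of each of the 10 genes in CPM (y axis, from 0) in each siTRAIP library (red) and siNC library (blue), with the mean and SD of each group (bars) and replicates 1, 2 and 3 as circle, square and triangle; an asterisk marks adjusted p under 0.05. All siTRAIP values of AGO2 lie near 43 CPM, below the lowest siNC value of 61.0 CPM.

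AGO2 (chromosome 8, 140520156 to 140635619, minus strand, GRCh38) encodes the Argonaute that cuts fully paired targets. It stood at 42.5, 43.3 and 42.7 CPM in siTRAIP and at 69.0, 66.4 and 61.0 CPM in siNC. The 3 siTRAIP libraries were nearly equal and all lay below every siNC library. AGO2 fell by 34.6% in siTRAIP, a log2 fold change of -0.61 (standard error 0.05, edgeR adjusted p = 8.31e-09). Under the alternatives tried, this value ranged from -0.67 to -0.52 and passed the threshold in each.

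The other Argonaute genes lie side by side on chromosome 1, all on the plus strand. AGO4 (35808172 to 35857890) comes first, AGO1 (35869808 to 35930528) begins 11917 bases after it, and AGO3 (35930718 to 36072500) begins 189 bases after AGO1. AGO1 stood at 25.5, 25.5 and 27.5 CPM in siTRAIP and at 25.5, 27.4 and 25.4 CPM in siNC, so that the groups overlapped almost fully. Its log2 fold change was 0.01 (standard error 0.06, edgeR adjusted p = 0.967). AGO4 likewise overlapped, with 17.9, 18.2 and 19.9 CPM in siTRAIP and 18.0, 20.1 and 16.5 CPM in siNC, and its log2 fold change was 0.04 (standard error 0.07, edgeR adjusted p = 0.800). The sign of both values turned with library totals alone, to -0.053 for AGO1 and -0.019 for AGO4. AGO3, the scarcest member, stood at 13.4, 12.7 and 12.3 CPM in siTRAIP and at 14.4, 14.7 and 13.4 CPM in siNC. Its groups did not overlap, by a margin of less than 0.1 CPM, and its log2 fold change of -0.15 (standard error 0.07) did not pass (edgeR adjusted p = 0.179). Its raw counts were 508 to 849 per library, the smallest of the 10 genes, and its standard error and that of AGO4 were the widest.

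**Figure D2:**
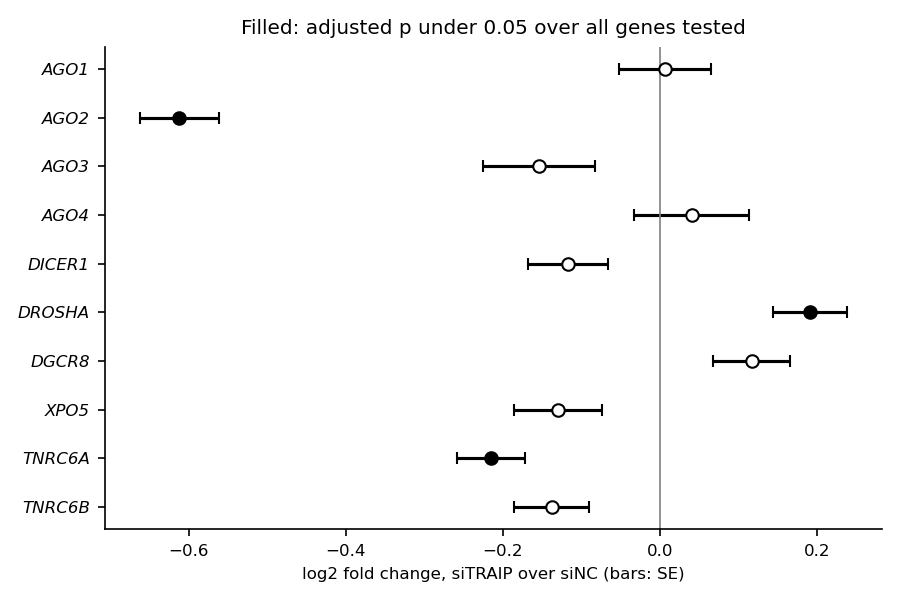
Log2 fold change of siTRAIP over siNC (x axis) with its SE (bars) for each of the 10 genes; filled points passed an adjusted p of 0.05 over all genes tested. AGO2 lies at -0.61, and the remaining genes lie between -0.22 and 0.19.

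Because CPM does not account for gene length, levels were compared between genes as RPKM, the deposited values that divide a count by gene length and by the library total. In RPKM, AGO2 averaged 2.65 ± 0.0457 in siTRAIP and 4.22 ± 0.248 in siNC (SD, n = 3 each). AGO4 averaged 2.51 ± 0.152 RPKM in siTRAIP and 2.55 ± 0.232 RPKM in siNC. AGO1 averaged 1.85 ± 0.0821 RPKM in siTRAIP and 1.92 ± 0.0675 RPKM in siNC. AGO2 was thus the most abundant Argonaute transcript in siNC, above AGO4 in every library, while in siTRAIP the libraries of AGO2 and AGO4 overlapped. AGO3 was the lowest of the family in every library, with 0.591 ± 0.0221 RPKM in siTRAIP and 0.685 ± 0.0277 RPKM in siNC. RPKM divides by the whole exonic length of the table (15833 bases for AGO2 and 21157 bases for AGO3), so a gene whose cells use shorter transcripts is understated.

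In the makeup of the Argonaute pool, the shares of 3 of the 4 genes did not overlap between the groups. AGO2 took 35.3%, 35.7% and 33.7% of the summed RPKM of the 4 genes in siTRAIP, against 46.6%, 43.5% and 44.9% in siNC, a difference of -10.1 percentage points. No siTRAIP library reached the lowest siNC share. The share of AGO4 averaged 33.0 ± 1.06% in siTRAIP and 27.2 ± 1.32% in siNC, a difference of 5.84 percentage points, and that of AGO1 averaged 24.3 ± 0.430% in siTRAIP and 20.5 ± 0.843% in siNC, a difference of 3.80 percentage points (SD, n = 3 each). Both were without overlap. The share of AGO3 overlapped, at 7.79 ± 0.511% in siTRAIP and 7.30 ± 0.0808% in siNC (SD, n = 3 each). The shares of AGO1, AGO2 and AGO4 each had p = 0.1 in a two-sided exact permutation test over the libraries, the smallest that 3 against 3 allows, and an adjusted p of 0.14 over 7 shares, so no share could pass. Shares sum to 100 by construction, so a lower AGO2 share raises the others. The summed RPKM itself was 7.60 ± 0.217 in siTRAIP and 9.38 ± 0.478 in siNC (SD, n = 3 each), a difference of -1.78 RPKM, of which AGO2 alone held -1.57 RPKM. RPKM lacks TMM factors, so this difference and its split include a general downward shift in siTRAIP (median -0.058 on log2(RPKM + 0.1)). AGO1 and AGO4 were thus slightly lower in RPKM, although their log2 fold changes with TMM factors were 0.01 and 0.04.

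**Figure D3:**
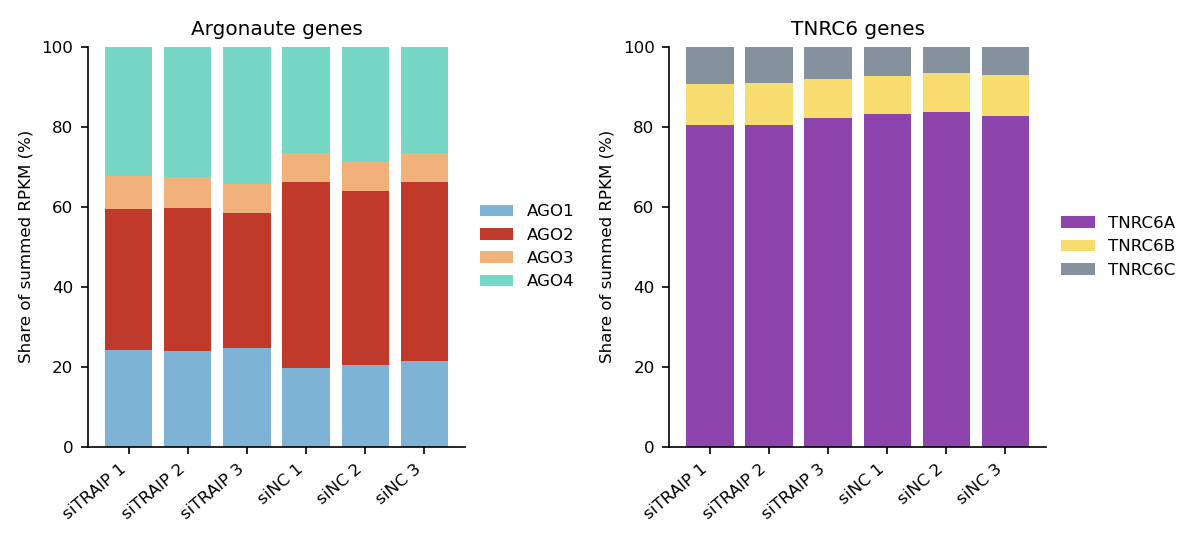
Share of the summed RPKM (y axis, percent) held by each Argonaute gene (left panel) and each TNRC6 gene (right panel) in the 3 siTRAIP and 3 siNC libraries (x axis). The AGO2 segment is smaller in each siTRAIP library (33.7% to 35.7%) than in each siNC library (43.5% to 46.6%).

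DROSHA (chromosome 5, 31400497 to 31532196, minus strand), the nuclease of the nuclear step, stood at 116, 114 and 128 CPM in siTRAIP and at 105, 106 and 103 CPM in siNC. All siTRAIP libraries lay above all siNC libraries, and siTRAIP replicate 3 was the highest. DROSHA rose by 14.1%, a log2 fold change of 0.19 (standard error 0.05, edgeR adjusted p = 0.00766). The call was lost with library totals alone (0.13, edgeR adjusted p = 0.0587). With limma on log2(RPKM + 0.1), a scale that also lacks TMM factors, it was lost as well (0.13, adjusted p = 0.168). The call was kept when any single library was left out (edgeR adjusted p at most 0.0461).

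DGCR8 (chromosome 22, 20080232 to 20111877, plus strand), which binds the hairpin for DROSHA, stood at 104, 102 and 115 CPM in siTRAIP and at 95.1, 101 and 99.6 CPM in siNC. The groups were separated by less than 1 CPM, with siTRAIP replicate 3 again the highest. Its log2 fold change of 0.12 (standard error 0.05) did not pass (edgeR adjusted p = 0.131), and without siTRAIP replicate 3 it was 0.056 (edgeR adjusted p = 0.432). On the opposite strand AC006547.8 covers 7.19% of the exonic bases of DGCR8, the largest such overlap among the 10 genes, but its counts came to 1.07% of those of DGCR8. DROSHA and DGCR8 were also close to each other in level per length. DROSHA had 14.4, 14.4 and 16.1 RPKM in siTRAIP and 13.8, 13.7 and 13.6 RPKM in siNC. DGCR8 had 13.7, 13.7 and 15.4 RPKM in siTRAIP and 13.3, 14.0 and 14.0 RPKM in siNC, so that the genes overlapped within each group.

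The DGCR8 messenger RNA carries microRNA hairpins in its own exons, and DROSHA with DGCR8 is known to cut them. The mature sequences from RefSeq (GRCh38.p14) are shown because they tie the gene to its own product, with the seed (bases 2 to 8) in capitals. MIR3618 lies at chr22:20085797-20085818 and the MIR1306 arms at chr22:20086072-20086093 and chr22:20086112-20086129, all on the plus strand.
hsa-miR-3618: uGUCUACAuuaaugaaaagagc
hsa-miR-1306-5p: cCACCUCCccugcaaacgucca
hsa-miR-1306-3p: aCGUUGGCucugguggug
The 3 seeds differ from each other. Messenger RNA libraries do not count mature microRNAs, so the amount of these products was not measured.

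XPO5 (chromosome 6, 43522330 to 43576075, minus strand), the receptor that exports hairpins from the nucleus, stood at 28.4, 28.4 and 25.9 CPM in siTRAIP and at 30.1, 30.3 and 29.9 CPM in siNC. The siNC libraries were almost equal and all lay above the siTRAIP libraries. The log2 fold change was -0.13 (standard error 0.06) and did not pass (edgeR adjusted p = 0.142), and without siTRAIP replicate 3 it was -0.084 (edgeR adjusted p = 0.362).

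DICER1 (chromosome 14, 95086228 to 95158010, minus strand), the cytoplasmic nuclease, stood at 104, 103 and 104 CPM in siTRAIP and at 118, 118 and 102 CPM in siNC. A single siNC library, replicate 3, lay below the siTRAIP libraries and made the groups overlap. The log2 fold change was -0.12 (standard error 0.05, edgeR adjusted p = 0.148). Without siNC replicate 3 it was -0.19 and passed (edgeR adjusted p = 0.0121).

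TNRC6A (chromosome 16, 24610209 to 24827632, plus strand) encodes the scaffold that links Argonaute to deadenylation, and it was the most abundant of the 10 genes in CPM and in RPKM. It stood at 244, 235 and 257 CPM in siTRAIP and at 278, 293 and 284 CPM in siNC. The highest siTRAIP library lay well below the lowest siNC library. TNRC6A fell by 13.9%, a log2 fold change of -0.22 (standard error 0.04, edgeR adjusted p = 0.00137), and it passed in each alternative tried (-0.28 to -0.19).

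TNRC6B (chromosome 22, 40044817 to 40335808, plus strand), a paralog with the same role, stood at 48.8, 46.9 and 48.1 CPM in siTRAIP and at 50.4, 53.1 and 54.7 CPM in siNC. The groups did not overlap, and the log2 fold change of -0.14 (standard error 0.05) just missed the threshold (edgeR adjusted p = 0.0611). It passed without siTRAIP replicate 3 (-0.14, edgeR adjusted p = 0.0458) and with library totals alone (-0.20, edgeR adjusted p = 0.00626). With a filter of at least 1 CPM in 3 libraries it passed as well (-0.14, edgeR adjusted p = 0.0434). The remaining paralog, TNRC6C, averaged 22.7 ± 1.30 CPM in siTRAIP and 20.3 ± 0.468 CPM in siNC (SD, n = 3 each). It was higher in every siTRAIP library than in any siNC library, with a log2 fold change of 0.16 (standard error 0.06, edgeR adjusted p = 0.106) that passed without siTRAIP replicate 3 (0.20, edgeR adjusted p = 0.0292). An antisense gene covers 12.9% of the exonic bases of TNRC6C, with 0.968% of its counts.

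Of the summed RPKM of the 3 TNRC6 genes, TNRC6A held 81.0 ± 0.937% in siTRAIP and 83.2 ± 0.464% in siNC, a difference of -2.13 percentage points (SD, n = 3 each). TNRC6C held 8.73 ± 0.680% in siTRAIP and 6.90 ± 0.299% in siNC, a difference of 1.84 percentage points (SD, n = 3 each). Neither share overlapped between the groups, and each had the smallest p that the two-sided exact permutation test allows (p = 0.1, adjusted p = 0.14). TNRC6B held 10.2 ± 0.258% in siTRAIP and 9.94 ± 0.307% in siNC (SD, n = 3 each), with overlap.

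Ordered by RPKM, TNRC6A led in both groups (18.6 in siTRAIP and 22.5 in siNC), followed by DROSHA and DGCR8 and then by DICER1 (8.25 in siTRAIP and 9.32 in siNC). XPO5 averaged 3.17 RPKM in siTRAIP and 3.61 RPKM in siNC. AGO2 and XPO5 changed places: AGO2 ranked below XPO5 in every siTRAIP library and above it in every siNC library. TNRC6B averaged 2.35 RPKM in siTRAIP and 2.69 RPKM in siNC, and its libraries overlapped those of AGO4 in siNC. The overlapping neighbours in siTRAIP were DROSHA with DGCR8 and AGO2 with AGO4, and in siNC DGCR8 with DROSHA and TNRC6B with AGO4. Among all genes tested, the level of the 10 ran from percentile 25.3 for AGO3 to percentile 88.2 for TNRC6A.

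**Figure D4:**
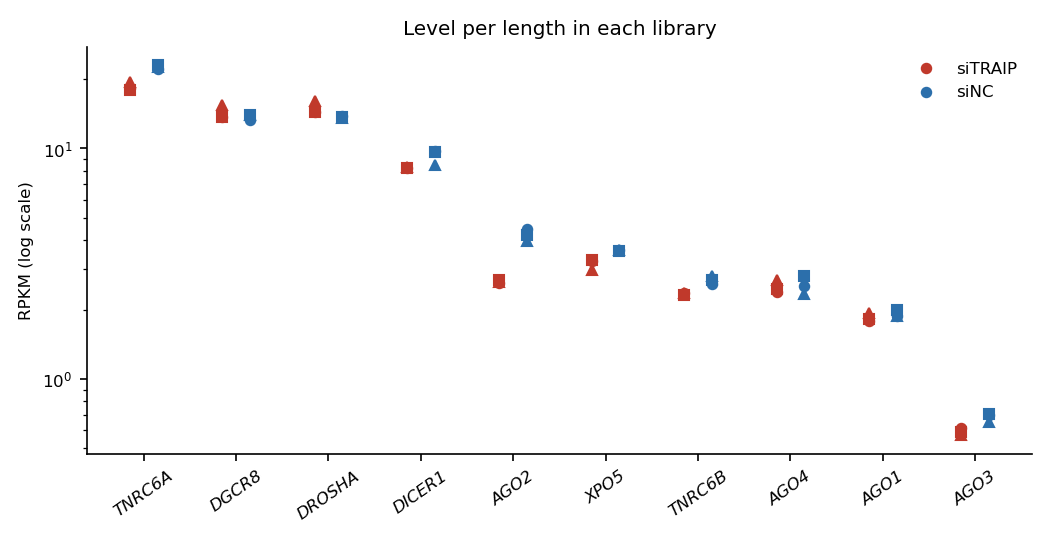
Deposited RPKM (y axis, log scale) of each of the 10 genes in the siTRAIP libraries (red) and siNC libraries (blue), with replicates 1, 2 and 3 as circle, square and triangle and genes in descending order. Levels run from 0.570 to 0.704 RPKM for AGO3 to 18.0 to 22.9 RPKM for TNRC6A, and AGO2 and AGO4 overlap in siTRAIP but not in siNC.

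Genes whose pattern over the 6 libraries was most like that of a called member were found by the Euclidean distance of centred log2 CPM among 10699 genes with a mean of at least 5 CPM. The pattern nearest to AGO2 was that of IDI2-AS1, a noncoding gene, at a distance of 0.0828, with 7.90 ± 0.137 CPM in siTRAIP and 11.7 ± 0.652 CPM in siNC (SD, n = 3 each). Next came CXCL8, which encodes the chemokine interleukin 8, at 0.0862, with 89.2 ± 1.80 CPM in siTRAIP and 132 ± 4.92 CPM in siNC (SD, n = 3 each). Nearest to DROSHA were SLF2 (0.0288), a factor of DNA repair on chromatin, and AZIN1 (0.0326), an inhibitor of the protein that marks ornithine decarboxylase for breakdown. Nearest to TNRC6A were KLHL2 (0.0541), an adaptor of a ubiquitin ligase, and MCC (0.0544). KLHL2 had a log2 fold change of -0.20 (edgeR adjusted p = 0.0455), a call that was lost with DESeq2 (adjusted p = 0.0774). MCC, at -0.18, did not pass (edgeR adjusted p = 0.120). The distances describe these 6 libraries only.

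In the wider pathway, 24 partners of small RNA processing and Argonaute loading were tested, of which 4 rose and 1 fell (20.8% called, against 12.8% of all genes tested, with a median log2 fold change of 0.06). The rises included both cytosolic HSP90 genes, whose chaperone opens Argonaute for the small RNA duplex. HSP90AA1 averaged 11432 ± 354 CPM in siTRAIP and 10152 ± 303 CPM in siNC (SD, n = 3 each; log2 fold change 0.17, standard error 0.04, edgeR adjusted p = 0.00660). HSP90AB1 had a log2 fold change of 0.16 (edgeR adjusted p = 0.00919), the HSP40 co-chaperone DNAJA2 of 0.19 (edgeR adjusted p = 0.00538) and TSN, a subunit of the nuclease C3PO, of 0.20 (edgeR adjusted p = 0.0443). PRKRA, a double-stranded RNA-binding partner of DICER1, fell to 14.2 ± 1.31 CPM in siTRAIP, against 17.7 ± 1.83 CPM in siNC (SD, n = 3 each; log2 fold change -0.31, standard error 0.08, edgeR adjusted p = 0.0123). TARBP2, the other such partner, had a log2 fold change of -0.12 (edgeR adjusted p = 0.431). Of these, the calls of HSP90AB1 and TSN were lost with library totals alone, and all 5 were lost with limma on log2(RPKM + 0.1). DNAJA2 kept its call whichever library was left out. HSP90AA1 and HSP90AB1 lost theirs without siNC replicate 1 or 3 (edgeR adjusted p up to 0.0840 and 0.0947), PRKRA without siNC replicate 3 or siTRAIP replicate 1 or 2 (up to 0.102), and TSN without siNC replicate 1 or any single siTRAIP replicate (up to 0.274).

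Downstream of TNRC6, 33 effectors of deadenylation, decapping and Argonaute turnover or transport were tested, including TNRC6C, of which 7 rose and 4 fell (33.3% called, against 12.8% of all genes tested, with a median log2 fold change of 0.01). Subunits of the CCR4-NOT deadenylase were mostly not called, but 2 fell. CNOT9, whose surface binds TNRC6, stood at 50.9, 52.7 and 49.2 CPM in siTRAIP and at 64.0, 62.6 and 64.4 CPM in siNC, a log2 fold change of -0.32 (standard error 0.05, edgeR adjusted p = 2.91e-05). CNOT10 had a log2 fold change of -0.34 (standard error 0.05, edgeR adjusted p = 3.62e-05). ZSWIM8, the ubiquitin ligase adaptor that directs the breakdown of Argonaute bound to certain targets, fell to 32.8 ± 0.981 CPM in siTRAIP, against 40.6 ± 1.35 CPM in siNC (SD, n = 3 each; log2 fold change -0.31, standard error 0.05, edgeR adjusted p = 1.86e-04). LSM14A, a protein of cytoplasmic processing bodies, rose by 0.24 on the log2 scale (edgeR adjusted p = 0.00282), DCP2, the decapping enzyme, by 0.28 (edgeR adjusted p = 0.00328) and IPO8, an importin that also binds Argonaute, by 0.20 (edgeR adjusted p = 0.00305). The falls of CNOT9, CNOT10 and ZSWIM8 kept their call in each alternative tried. The rises of LSM14A, DCP2 and IPO8 lost theirs with limma on either RPKM scale. The other called genes of this list went in both directions, among the decapping genes too. They are not named here, and their calls were not followed through the alternatives.

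**Figure D5:**
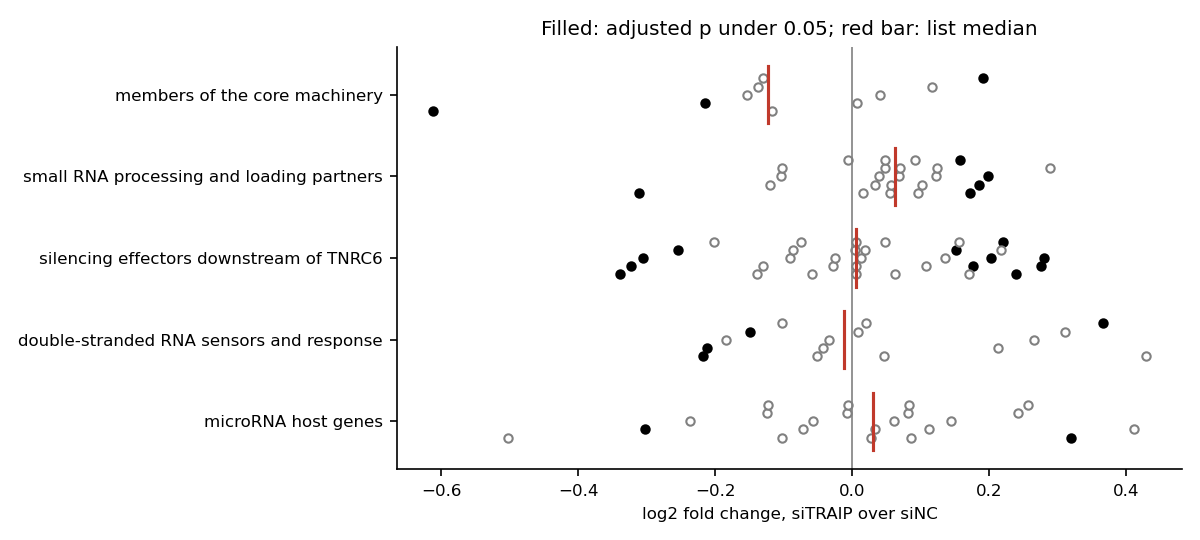
Log2 fold change of siTRAIP over siNC (x axis) of each tested gene of the 10 core genes and of 4 related lists (rows); filled points passed an adjusted p of 0.05, and red bars mark the median of each row. The median of the core genes is -0.12, and the medians of the other rows lie between -0.01 and 0.06.

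The PIWI genes, the germline branch of the Argonaute family, were close to absent. PIWIL1 and PIWIL2 had at most 4 counts in any library, and PIWIL4, the PIWI gene tested, averaged 0.803 CPM in siTRAIP and 0.737 CPM in siNC (edgeR adjusted p = 0.758).

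Host genes of microRNAs were taken by name, as symbols that start with MIR and end with HG, plus DLEU2. Hosts with other names, such as DGCR8, are not among them. Of 22 such genes tested, 1 rose and 1 fell (9.09% called, against 12.8% of all genes tested, with a median log2 fold change of 0.03). MIR100HG stood at 27.2, 26.1 and 30.0 CPM in siTRAIP and at 21.2, 22.9 and 22.7 CPM in siNC, a log2 fold change of 0.32 (standard error 0.06, edgeR adjusted p = 9.97e-04). This call was lost with limma on either RPKM scale (0.18 and adjusted p = 0.102 on log2(RPKM + 1)). MIR22HG stood at 28.0, 29.7 and 29.1 CPM in siTRAIP and at 33.6, 37.1 and 36.3 CPM in siNC, a log2 fold change of -0.30 (standard error 0.05, edgeR adjusted p = 4.66e-04). Neither gene had overlapping groups. The principal microRNA strands of these 2 called host genes are shown with the seed in capitals (RefSeq, GRCh38.p14). Those of MIR100HG lie in introns on the minus strand, at chr11:122146568-122146589 (let-7a), chr11:122152275-122152296 (miR-100) and chr11:122099809-122099830 (miR-125b), and miR-22 lies in an exon of MIR22HG on the minus strand at chr17:1713914-1713935.
hsa-let-7a-5p: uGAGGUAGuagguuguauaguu
hsa-miR-100-5p: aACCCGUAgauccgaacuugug
hsa-miR-125b-5p: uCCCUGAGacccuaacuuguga
hsa-miR-22-3p: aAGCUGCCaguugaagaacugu
The 4 seeds differ. A host transcript does not give the amount of the mature microRNA, which these libraries do not count.

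The let-7 seed pairs with the word CTACCTC, and human DICER1 is known as a target of let-7 through its coding sequence. The word was searched on the transcript strand of the GENCODE transcript with the longest coding sequence. DICER1 held it at 4 places, all in the coding sequence. They are shown in windows of 25 bases with the word in capitals, and lie on the minus strand of chromosome 14 (GRCh38).
DICER1 chr14:95107880-95107904: tactgtgttCTACCTCttaatgttg
DICER1 chr14:95103740-95103764: tgcaaccaaCTACCTCatattccat
DICER1 chr14:95103632-95103656: ctaacaaatCTACCTCagatggaag
DICER1 chr14:95094098-95094122: gattttggaCTACCTCataaccaag
Over 9146 genes, 21.8% held the word in either region and 9.25% in the 3′ UTR, but 51.2% of the 82 genes with a 3′ UTR of at least 10 kb held it there. The 3′ UTRs of AGO1, AGO2, AGO3 and TNRC6B are all of that length. AGO2 held it at 2 places and AGO1 at 1 place of the 3′ UTR, AGO3 at 1 place in each region, and XPO5 at 1 place of the coding sequence. The word ATGCTGC, which pairs with the seed of miR-103 and miR-107, known regulators of DICER1, occurred in the 3′ UTR of 12.4% of genes and of 65.9% of the genes with such long 3′ UTRs. DICER1 and AGO2 held it at 5 places of the 3′ UTR each, AGO1 and TNRC6B at 3 each, AGO4 at 2 and AGO3 at 1. TNRC6A, DROSHA and DGCR8 held neither word in these regions.

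The 7-base words ACAGTCT and CAGTCTA, which overlap by 6 bases, had been picked in an earlier analysis of these same fold changes as words of genes that fell. Searched in both regions together, either word occurred in 45.3% of called falls, 28.4% of 9146 genes and 24.6% of called rises, which describes that choice and tests nothing. AGO2 held 3 matches at 2 places, both in its 3′ UTR of 11888 bases. TNRC6A, which also fell, held none in the coding sequence or 3′ UTR. TNRC6B held 3 places in its 3′ UTR of 12566 bases and 1 in its coding sequence, AGO1 held both words at 1 place and AGO3 held 1. DROSHA, which rose, and DICER1 each held 1 in the coding sequence. These words were not tested as a cause of any change. AGO1, AGO3 and TNRC6B were not called in the main fit, although AGO3 and TNRC6B were lower in siTRAIP without overlap. Sites in the 3′ UTRs of AGO1, AGO3 and TNRC6B (2 of its 3) are shown because these genes share the words with AGO2. All lie on the plus strand, and capitals mark the words.
AGO1 chr1:35921933-35921957: cttcatatACAGTCTActtcgtgtt
AGO3 chr1:36063193-36063217: gcattaaagACAGTCTttagacaga
TNRC6B chr22:40329349-40329373: cctgtgataACAGTCTgtgggtttg
TNRC6B chr22:40332581-40332605: gacttgatcACAGTCTcctcgtgcc
All 4 genes with these 3′ UTR sites have 3′ UTRs over 10 kb, a length at which 81.7% of 82 genes searched held either word. TCGGAGA and CGGAGAA, picked the same way for genes that rose and held by 18.9% of genes, were held by 2 of the 10 genes. CGGAGAA occurred once in the coding sequence of DROSHA and TCGGAGA once in that of AGO1.

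The series title ties TRAIP to MYC, which binds the palindrome CACGTG together with MAX. In the RefSeq promoter windows (GRCh38.p14, 250 bases before to 50 bases after a start), 9 of the 10 genes, all but AGO2, had 13 windows in all, and none held CACGTG, against 7.26% of 35116 windows of all genes. These letters were thus not in these windows. At a share of 7.26%, 13 windows are too few for an absence to tell these genes from others, and AGO2 was not covered.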

How the data were processed

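RNA was extracted with TRIzol and sequenced after a stranded mRNA kit, per the labels' protocols. The authors deposited whole-number counts and RPKM values per gene. Trimmomatic 0.36, featureCounts, Subread 1.5.1 and GRCh38 were used, per the submitters' processing notes; the sources used here do not give the aligner, annotation release or strand setting, so genes overlapping on opposite strands are uncertain. Of counts from 1 to 10, 70.2% were even, against 50.8% above 1000, so reads may exceed fragments. The deposited RPKM equalled count over length over summed counts within a relative 1.25e-06.

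Counts were fitted with edgeR 4.0.16 (R 4.3.3): filterByExpr, TMM factors, a robust quasi-likelihood fit of all 6 libraries with the F-test, Benjamini-Hochberg over 18685 genes, threshold 0.05. The SE is the log2 fold change over the square root of F. The test was also run on counts simulated from its own kind of model with the dispersions fitted here. That run could not show how the test behaves where real counts depart from the model. The changes put into it were larger than those of all members but AGO2. The common biological coefficient of variation was 5.73%. Alternatives were DESeq2 1.42.0, RLE factors, library totals, other filters, the replicate block, robust=FALSE, halved counts, limma 3.58.1 on log2(RPKM + 0.1) and log2(RPKM + 1), and each library left out.

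All 10 members and, of each list, up to 6 called genes with the smallest adjusted p are named. Members and lists were chosen with earlier results of these data known.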

Additional observations from a re-analysis of the deposited data

How the results depend on the processing

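AGO2 and TNRC6A kept their direction and their call in each of the 16 alternatives tried. With library totals alone 838 genes rose and 2050 fell, and of the members 6 were called, 6 falls and 0 rises: AGO3, DICER1, XPO5 and TNRC6B were added and DROSHA was lost. With limma on log2(RPKM + 0.1), 1521 genes were called and 454 rose, and on log2(RPKM + 1), 1517 were called and 450 rose; 0 members rose on either scale. The sign of AGO1 turned with library totals (-0.053) and on the RPKM scales (-0.054 and -0.037), and that of AGO4 likewise (-0.019, -0.021 and -0.016). Leaving out each library in turn, AGO1 ranged from -0.033 to 0.040, below 0 in 3 of the 6 fits, and AGO4 from -0.029 to 0.11, below 0 in 2. Over these fits 1480 to 2622 genes were called, 878 to 1471 rising and 602 to 1151 falling, with the lowest counts without siNC replicate 1, and 3 to 4 members were called, 2 to 3 of them falls. With the replicate block 2145 genes and 3 members were called, and among the genes named KLHL2 alone lost its call. Same-numbered replicates share only a number: their deviations from the group means correlated at 0.0337, -0.0888 and -0.0166. Only siNC replicate 1 correlated best with its own number. As shares of summed counts, the differences were 4.98 (AGO1), 1.28 (AGO3) and 3.90 (AGO4) percentage points. Dropping TMM scaling lowers all fold changes by about the same amount, as the median of -0.06 over all genes shows. The RPKM scales divide by library totals and lack TMM factors too. Their median over all genes was -0.058 on log2(RPKM + 0.1) and -0.032 on log2(RPKM + 1). Changes on these scales thus share that shift and are not independent of those with library totals. The cause of the other changes was not tested. Of 400 values of other named genes, 339 kept direction and side of the threshold, 59 lost their call, 2 gained it and 0 reversed.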

Other observations

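A list of sensors of double-stranded RNA, an adaptor and interferon-induced genes had 16 genes tested. Of these 1 rose and 3 fell, so that 4 of 16 were called, against 12.8% of all genes tested, with a median log2 fold change of -0.01. A single sensor, DDX58, was among the 4, and the others were the adaptor MAVS and the interferon-induced genes IFIT3 and MX1. IFIT3 stood at 54.2, 51.7 and 50.8 CPM in siTRAIP and at 59.6, 61.0 and 60.6 CPM in siNC, a log2 fold change of -0.21 (standard error 0.05, edgeR adjusted p = 0.00269). DDX58, which encodes the sensor RIG-I, had a log2 fold change of -0.22 (edgeR adjusted p = 0.0297), and MAVS, its mitochondrial adaptor, one of -0.15 (edgeR adjusted p = 0.0307). MX1, an antiviral GTPase, went the other way at 6.57 ± 0.246 CPM in siTRAIP and 5.10 ± 0.119 CPM in siNC (SD, n = 3 each; log2 fold change 0.37, standard error 0.10, edgeR adjusted p = 0.0117). IFIH1, the sensor MDA5, had a log2 fold change of 0.01 (edgeR adjusted p = 0.977), and EIF2AK2, the kinase PKR, one of -0.05 (edgeR adjusted p = 0.496). IFIT3 kept its call whichever library was left out. DDX58 lost its call when any single siNC replicate, or siTRAIP replicate 1 or 2, was left out (edgeR adjusted p up to 0.167), MAVS when any single siNC replicate or siTRAIP replicate 1 was (up to 0.135), and MX1 without siNC replicate 1 (0.0549). With limma on log2(RPKM + 0.1) and log2(RPKM + 1) the calls of MX1 (0.26 and 0.12, adjusted p = 0.133 and 0.0911) and DDX58 (adjusted p = 0.0688 and 0.0714) were lost too, and that of MAVS on the second scale (adjusted p = 0.0503).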
